A study of Solanum lycopersicum with 18 samples.

Results

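Of the 33976 tomato genes in the deposited expression table, 149 (0.439%) were enriched in mock-primed seeds of Stupicke over those of the other 2 genotypes of the study. They were chosen on TPM, a unit that gives each gene's length-corrected share of the transcripts in a library. A member had a mean of at least 5 TPM in mock-primed Stupicke and at least 4 times the mean of mock-primed Criollo and of mock-primed Micro-Tom. In addition, its lowest mock-primed Stupicke library lay above its highest mock-primed Criollo and Micro-Tom library. Because the mock-primed libraries selected these genes, their levels in those libraries are a description and carry no test. Among the 13693 genes with a mean of 5 TPM or more in mock-primed Stupicke, members made up 1.09%.

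Stupicke is a large-fruited cultivar, Criollo a small-fruited one, and Micro-Tom a dwarf genotype that is widely used as a laboratory reference. Dry mature seeds were osmoprimed for 48 h in the dark, that is, imbibed in a polyethylene glycol solution of -1 MPa that holds back germination. The solution contained either water (mock) or 2 mM methyl jasmonate (MeJA), a volatile form of the defence hormone jasmonate, and the seeds were afterwards dried again for 48 h. Each of the 6 groups (Stupicke, Criollo and Micro-Tom, each mock-primed and MeJA-primed) had 3 replicates of 30 seeds, giving 18 libraries. All groups shared the osmotic treatment, so no group of unprimed seeds is among them. The seeds of a genotype came from 1 lot, so genotype and seed lot cannot be told apart, and p-values measure the spread between dishes of seeds. In whole seeds, fewer cells of a type and less RNA per cell cannot be told apart either.

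By way of background, tomato seeds store protein and oil while they mature and then dry. Vicilins and legumins are the globulins kept in protein storage vacuoles, and oleosins and caleosins coat the oil bodies. Late embryogenesis abundant (LEA) proteins and small heat shock proteins accumulate toward the end of maturation and are associated with tolerance of drying, and abscisic acid (ABA) promotes this programme. Transcripts of these families are stored in the dry seed and decline as a seed proceeds to germination. Jasmonates act in plant defence and can delay germination in several species.

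Library totals ranged from 18807931 to 20560389 estimated reads. Replicate 3 of mock-primed Micro-Tom correlated least with the other libraries of its group (mean r = 0.937 on the log scale, against 0.962 to 0.991 elsewhere), and without it the same rule chose 137 genes, 134 of them among the 149. Seed transcripts were abundant in every library. Summed over the annotated genes of each list, LEA proteins and dehydrins took 64620.3 to 81894 TPM in mock-primed Stupicke, 29506 to 34289 in Criollo and 18867 to 22608 in Micro-Tom. Abundant seed transcripts match the labelled tissue, seed. The 4 annotated photosynthesis genes together stayed between 1.82 and 10.4 TPM in every library, and the 3 ripe-fruit genes between 7.87 and 53.7 TPM. So few genes cannot show that other tissue was absent. A description was at hand for 61 members (40.9%), against 14.4% of all genes of 5 TPM or more in mock-primed Stupicke. Among the 1968 genes with a description at that level, 61 were thus members, the share beside which the members of each annotation list are to be read. These descriptions come mainly from lists of MeJA-responsive genes made on these same libraries, so the annotated members are not an even sample of all members. The other 88 members are given by identifier only.

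The members spanned a wide range of levels. In mock-primed Stupicke 34 of them had a mean of 5 to 10 TPM, 75 lay between 10 and 100, 35 between 100 and 1000, and 5 above 1000. The median member was at 30.9 TPM in mock-primed Stupicke, 3.42 in Criollo and 3.06 in Micro-Tom, values that the rule itself set apart. With MeJA, which the rule did not use, the median was 29.7 TPM in Stupicke, 6.45 in Criollo and 6.86 in Micro-Tom. At the edge of the rule, Solyc04g064470 was just inside, with a mock-primed Stupicke mean 4.0 times the higher of the other means, followed by Solyc07g026710 (4.02) and Solyc09g074660 (4.03). Just outside were Solyc07g026705 and Solyc03g005960 (both 3.99) and Solyc07g065990 (3.94), an oleosin S1-2-like gene at 836 TPM in mock-primed Stupicke.

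**Figure D1:**
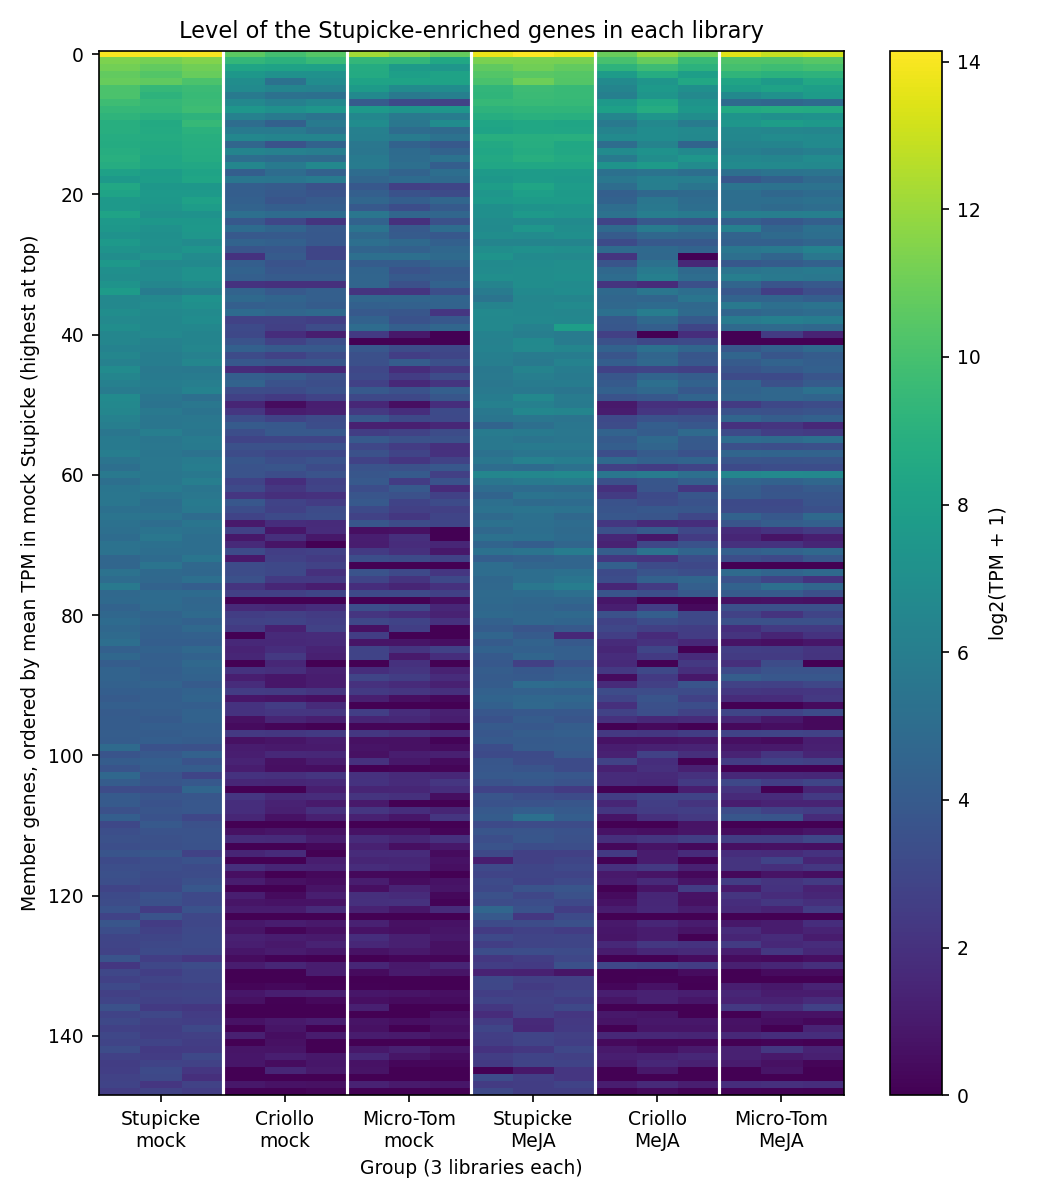
Heat map of log2(TPM + 1) of the 149 members (rows, ordered by mean TPM in mock-primed Stupicke) in the 18 libraries (columns, 3 per group). The 6 Stupicke libraries, mock-primed and MeJA-primed, are brighter than the 12 Criollo and Micro-Tom libraries over most of the rows, and the mock columns are those on which the rows were chosen.

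Taken as a sum, the members accounted for 3.75% ± 0.243 of all TPM in mock-primed Stupicke (SD, n = 3), 0.404% ± 0.0581 in Criollo and 0.615% ± 0.216 in Micro-Tom. After MeJA priming the sum was 3.40% ± 0.415 in Stupicke, 0.813% ± 0.279 in Criollo and 1.60% ± 0.219 in Micro-Tom. One gene, a vicilin, supplied much of this, and without it the shares were 2.11% ± 0.238, 0.275% ± 0.0296 and 0.302% ± 0.0712 in the mock-primed groups and 1.88% ± 0.160, 0.532% ± 0.158 and 0.643% ± 0.0405 in the MeJA-primed groups, in the same order. The lowest MeJA-primed Stupicke library (3.08%) was above the highest MeJA-primed Micro-Tom library (1.82%) and the highest MeJA-primed Criollo library (1.13%). Within some groups the members moved together from library to library. Replicate 2 of MeJA-primed Criollo held the highest of the 3 values for 86 members, and replicate 1 of mock-primed Micro-Tom for 84. The split was more even in MeJA-primed Stupicke (41, 61 and 47) and MeJA-primed Micro-Tom (42, 38 and 63). The members are thus not independent readings of a group. Whether other genes moved in the same way was not tested.

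**Figure D2:**
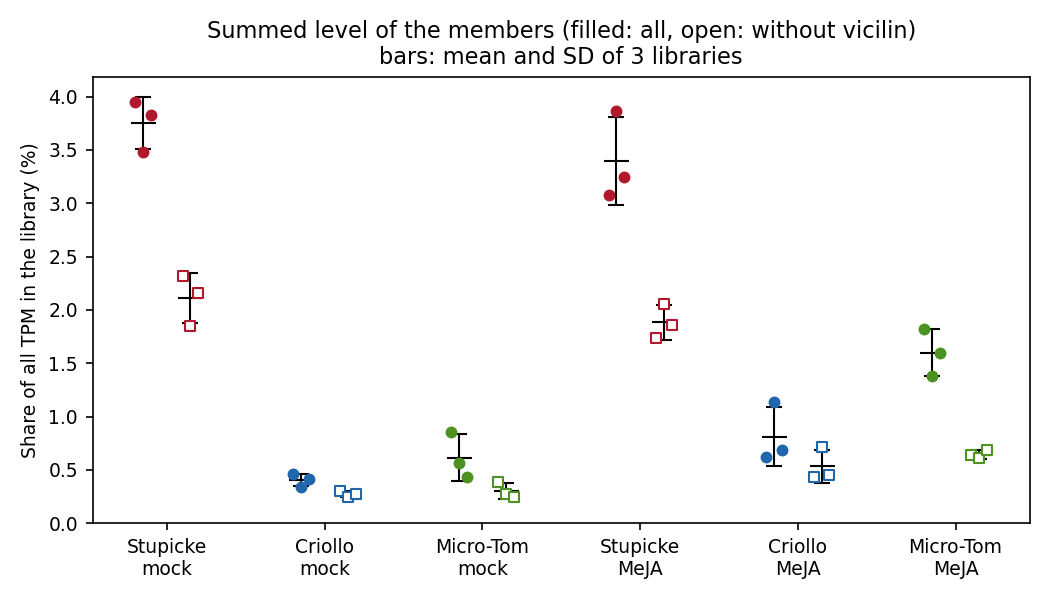
Share of all TPM (%, y axis) held by the 149 members in each library of the 6 groups, with all members (filled circles) and without the vicilin Solyc09g082340 (open squares); black bars are the mean and SD of 3 libraries. The Stupicke libraries lie between 3.08% and 3.95%, above all libraries of the other genotypes, among which MeJA-primed Micro-Tom is highest.

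Whether the enrichment was also present in seeds primed with MeJA was asked of the 9 MeJA-primed libraries, which took no part in choosing the members. Fitted alone with edgeR's quasi-likelihood test, 19104 genes were tested, 135 members among them. The other 14 members had 5 to 38 reads over the 3 MeJA-primed Stupicke libraries and did not pass the filter on low counts. Of all 149 members, 133 were upregulated in MeJA-primed Stupicke over Criollo at an adjusted p of 0.05, where 16.1% of the genes tested were. Over Micro-Tom 123 members were upregulated, against 27.7% of the genes tested. Both calls, which share the Stupicke libraries, were met by 121 members (81.2%) and by 9.16% of the genes tested. No member was called lower in MeJA-primed Stupicke, whereas 17.2% of the genes tested were lower than in Criollo and 27.4% lower than in Micro-Tom. For 136 members the lowest MeJA-primed Stupicke library lay above all 6 MeJA-primed libraries of the other genotypes, as it did for 5.69% of all genes in the table. The bases differ, as only 13693 of those 33976 genes reached the 5 TPM in mock-primed Stupicke required of a member.

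The distance between the genotypes was smaller under MeJA. The median ratio of mean TPM over the members was 9.23 for Stupicke over Criollo and 8.40 for Stupicke over Micro-Tom in the mock-primed seeds that chose them. In MeJA-primed seeds these medians were 4.54 and 4.13, beside 0.921 and 0.910 over all genes tested. A ratio of at least 4 over both genotypes was reached with MeJA by 51 members. Among the 13693 genes with 5 TPM or more in mock-primed Stupicke, 56 (0.409%) reached it. Those 56 include the 51 members, so the share is not a rate in other genes. The 4-fold limit was applied to the mock-primed libraries only, and how much of the smaller distance came from that choice was not tested. On the TPM scale the median log2 difference over all genes tested was -0.10 for Stupicke over Criollo and -0.11 over Micro-Tom, and after edgeR's normalization it was -0.0037 and -0.0027.

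Storage and oil body genes were among the most abundant members. Solyc09g082340, annotated as a vicilin, was the most abundant member, with 16344, 16321 and 16647 TPM in the 3 mock-primed Stupicke libraries, 1538, 979 and 1376 in Criollo and 4699, 2910.3 and 1796 in Micro-Tom. With MeJA it had 13399, 18124 and 13908 TPM in Stupicke, 1895, 4191 and 2329 in Criollo and 11883, 7778 and 9064 in Micro-Tom. MeJA-primed Micro-Tom thus came close to Stupicke without overlapping it, and Criollo stayed well below. By edgeR the log2 fold change in MeJA-primed seeds, given here with its SE, was 2.56 ± 0.33 (adjusted p = 4.2e-04) over Criollo and 0.92 ± 0.31 (adjusted p = 0.0289) over Micro-Tom. The latter call held in 6 of the 9 edgeR fits that left out 1 library (adjusted p = 0.00605 to 0.102) and was lost without replicate 2 of MeJA-primed Stupicke or replicate 2 or 3 of Micro-Tom, as it was in limma on the TPM scale (adjusted p = 0.0788 to 0.0828). Its neighbour Solyc09g082330, which has no description here, was also a member, at 417 ± 28.0 TPM in mock-primed Stupicke, 18.8 ± 6.66 in Criollo and 27.7 ± 17.4 in Micro-Tom. Reads of near-identical neighbouring genes can be divided between them by the quantification, and the share that moved this way was not tested. Solyc09g065470, described as vicilin-like antimicrobial peptides 2-1 after a seed globulin that is cut into antimicrobial peptides in macadamia, had 2241, 1708 and 2168 TPM in mock-primed Stupicke and 1677, 2133 and 1737 with MeJA. In Criollo it went from 309.8, 284 and 273 TPM (mock) to 560.4, 841 and 541 (MeJA), and in Micro-Tom from 417, 210.2 and 171 to 1009.6, 855 and 1009.6. The groups of MeJA-primed seeds did not overlap, and edgeR's log2 fold changes for Stupicke were 1.64 ± 0.20 (adjusted p = 3.5e-04) over Criollo and 1.23 ± 0.20 (adjusted p = 6.1e-04) over Micro-Tom.

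Solyc03g005940, an oil body-associated protein 2A-like gene, had 1712, 1335 and 1866 TPM in mock-primed Stupicke, 181, 139 and 140.4 in Criollo and 408, 250.4 and 288 in Micro-Tom. Under MeJA its values were 1319, 1485 and 1355 in Stupicke, 219.8, 439 and 244 in Criollo and 609, 528 and 568 in Micro-Tom, again without overlap, and edgeR gave log2 fold changes of 2.32 ± 0.25 (adjusted p = 1.8e-04) and 1.35 ± 0.25 (adjusted p = 0.00115). The gene next to it, Solyc03g005943, was also a member, at 20.7 ± 2.89 TPM in mock-primed Stupicke. The caleosin Solyc01g005400, a calcium-binding oil body protein, was at 52.2 ± 6.67 TPM in mock-primed Stupicke, 6.53 ± 0.220 in Criollo and 11.8 ± 2.48 in Micro-Tom. With MeJA it was at 46.4 ± 4.28, 18.9 ± 7.09 and 31.2 ± 3.28, and its log2 fold change over Micro-Tom was small, at 0.59 ± 0.23 (adjusted p = 0.0495) by edgeR, against 1.40 ± 0.24 (adjusted p = 0.00180) over Criollo. The call over Micro-Tom held in 4 of the 9 leave-one-out fits by edgeR (adjusted p = 0.00192 to 0.153), being lost without any 1 Stupicke library or replicate 1 or 2 of Micro-Tom, and it was lost with RLE size factors (edgeR adjusted p = 0.0525). Another annotated caleosin, Solyc01g005410, ran the other way in mock-primed seeds, with means of 30.8 TPM in Stupicke, 79.9 in Criollo and 77.1 in Micro-Tom. With MeJA its log2 fold changes were 0.08 over Criollo and -0.31 over Micro-Tom, and edgeR called neither (adjusted p = 0.909 and 0.585).

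Genes on the storage protein list did not all share this pattern with respect to Micro-Tom. Of 11 annotated seed storage genes, 10 of them at 5 TPM or more in mock-primed Stupicke, 2 were members and 10 were tested in MeJA-primed seeds. Of these, 8 exceeded Criollo and 1 fell below it, whereas 4 exceeded Micro-Tom and 5 fell below it, with median log2 fold changes of 1.55 and -0.52 beside values near 0 over all genes tested. The list took in genes described only by the bifunctional inhibitor, lipid-transfer and 2S albumin superfamily, which also stood on the antimicrobial list. Among them, Solyc08g074480 was the 1 gene below Criollo, and it and Solyc08g078890 were below Micro-Tom (-1.69 and -2.68). The storage genes Solyc03g005580, Solyc09g072560 and Solyc09g090150 were lower than Micro-Tom too. Because the descriptions come from MeJA-responsive genes of these libraries, such list counts, here and below, are not independent evidence of a direction. The 2S albumin Solyc08g080490, for example, averaged 757 TPM in mock-primed Stupicke, 17.9 in Criollo and 584 in Micro-Tom, and so missed the rule through Micro-Tom alone. All 7 annotated oleosins and caleosins reached 5 TPM in mock-primed Stupicke, and 1 was a member. Of the 7, 5 were higher in MeJA-primed Stupicke than in Criollo and none lower, and against Micro-Tom 2 were higher and 2 lower. Beside both lists, the shares of all genes tested that were higher and lower were 16.1% and 17.2% against Criollo. Against Micro-Tom these shares were 27.7% and 27.4%.

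A LEA gene separated all 3 genotypes. Solyc09g082110, a LEA protein D-34 gene, had 875, 685 and 801 TPM in mock-primed Stupicke, 94.7, 69.4 and 93.1 in Criollo and only 15.7, 7.93 and 6.03 in Micro-Tom. With MeJA it had 699, 743 and 715 TPM in Stupicke, 194, 349 and 153 in Criollo and 28.4, 25.2 and 29.5 in Micro-Tom, without overlap between any of the groups. EdgeR gave log2 fold changes of 1.76 ± 0.27 (adjusted p = 0.00104) for Stupicke over Criollo, 4.93 ± 0.31 (adjusted p = 2.2e-06) over Micro-Tom and 3.17 ± 0.29 (adjusted p = 2.3e-05) for Criollo over Micro-Tom. The neighbouring gene Solyc09g082100, also a LEA D-34 gene and not a member, averaged 876 TPM in mock-primed Stupicke, 156 in Criollo and 224 in Micro-Tom, so it missed the limit narrowly through Micro-Tom. Of 24 annotated LEA and dehydrin genes, 21 of them at 5 TPM or more in mock-primed Stupicke, 1 (Solyc09g082110) was a member. Among the 23 tested under MeJA, 10 exceeded Criollo in Stupicke and 1 fell below it, and 13 exceeded Micro-Tom and 4 fell below it (median log2 fold changes 0.47 and 0.73), beside the shares over all genes tested given above. The most abundant of them, the 11 kDa LEA gene Solyc10g078770, averaged 35814 TPM in mock-primed Stupicke, 12764 in Criollo and 5905 in Micro-Tom and was short of 4-fold over Criollo. Outside the list, the members Solyc07g066400 (a seed maturation protein) and Solyc11g042800 (embryonic protein DC-8, known from carrot embryos), singled out after their values were seen, had 199 ± 32.4 and 75.0 ± 13.6 TPM in mock-primed Stupicke, and in MeJA-primed seeds log2 fold changes of 2.10 and 2.07 over Criollo and 2.24 and 2.05 over Micro-Tom, all called by edgeR.

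Among the members were 3 of the 32 annotated heat shock and chaperone genes, 29 of which reached 5 TPM in mock-primed Stupicke. Of all 1968 annotated genes at that level, 61 were members. The class I heat shock protein gene Solyc04g072250, a small heat shock protein of the cytosol, had 1126, 565 and 729 TPM in mock-primed Stupicke, 54.7, 38.2 and 35.8 in Criollo and 106, 51.4 and 67.4 in Micro-Tom. With MeJA it had 611, 809.8 and 734 TPM in Stupicke, 68.6, 165 and 98.3 in Criollo and 103, 141 and 215 in Micro-Tom. Every Stupicke library was thus above every other library, and edgeR's log2 fold changes were 2.80 ± 0.36 (adjusted p = 4.1e-04) and 2.25 ± 0.35 (adjusted p = 4.3e-04). Another class I gene, Solyc06g076520, showed edgeR log2 fold changes of 2.88 ± 0.62 (adjusted p = 0.00641) and 2.72 ± 0.62 (adjusted p = 0.00399), with MeJA-primed Criollo spread widely (12, 37.3 and 1.99 TPM). The heat shock 70 kDa gene Solyc07g005820, an ATP-driven chaperone, was at 338 ± 8.53 TPM in MeJA-primed Stupicke, 158 ± 47.3 in Criollo and 102 ± 6.59 in Micro-Tom, with edgeR log2 fold changes of 1.21 ± 0.19 (adjusted p = 0.00129) and 1.95 ± 0.20 (adjusted p = 3.0e-05). Of the 31 annotated heat shock and chaperone genes tested, 12 exceeded Criollo in MeJA-primed Stupicke and 4 fell below it, and 19 exceeded Micro-Tom and 1 fell below it, with median log2 fold changes of 0.15 and 1.29. Over all genes tested, the shares higher and lower were 16.1% and 17.2% against Criollo and 27.7% and 27.4% against Micro-Tom.

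**Figure D3:**
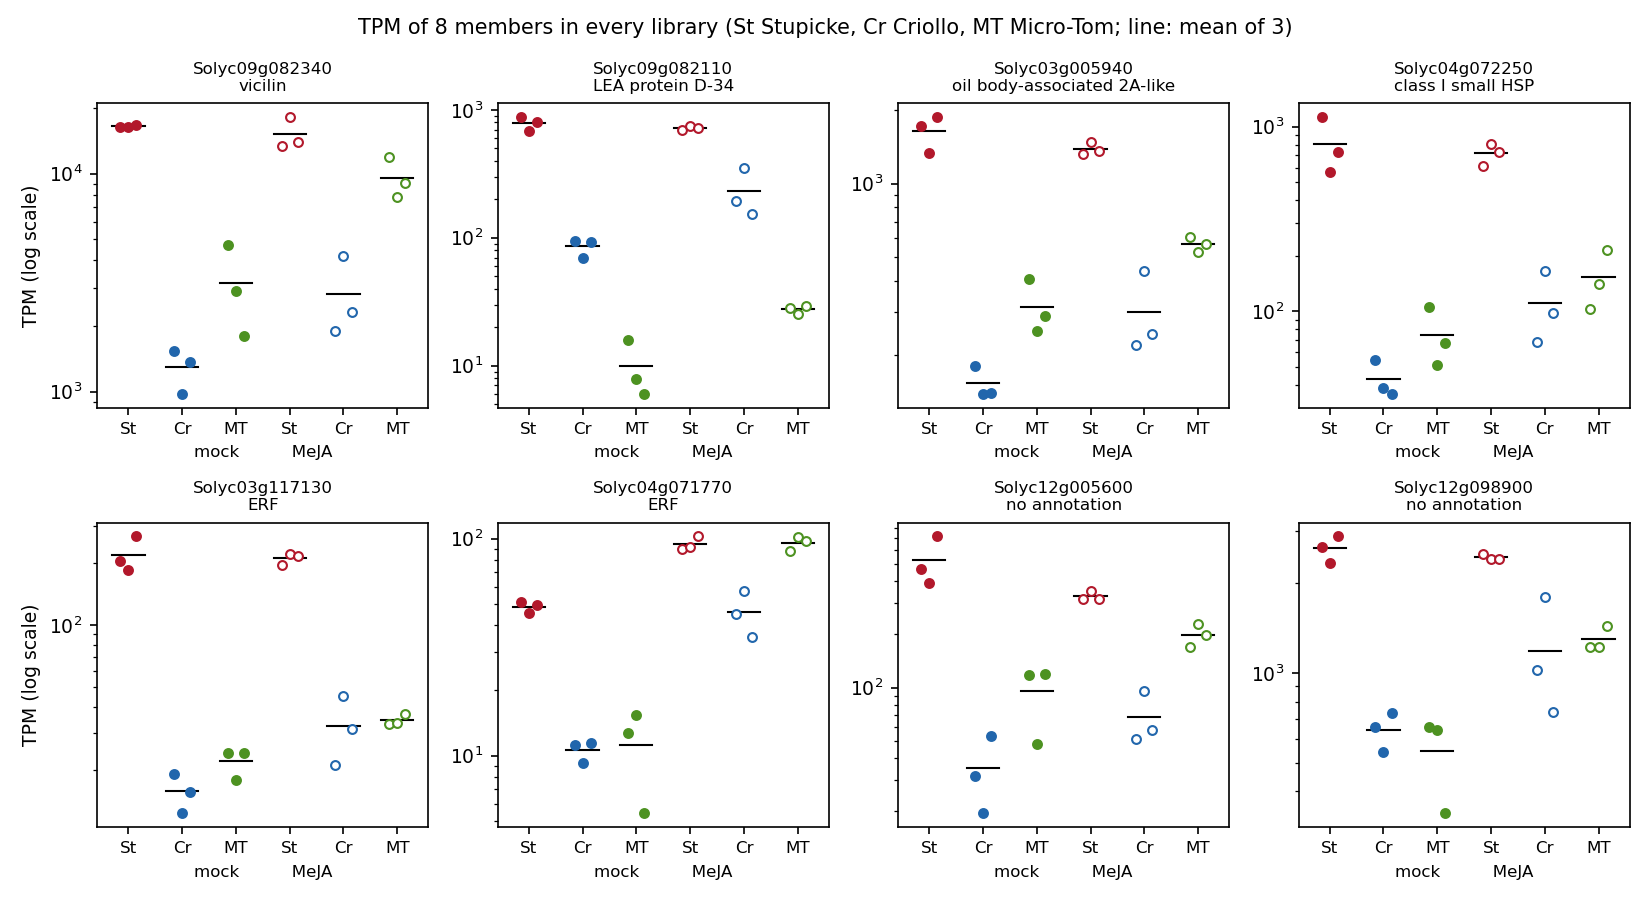
TPM (log scale) of 8 members in all 18 libraries, by genotype within mock-primed (filled points) and MeJA-primed (open points) seeds; black lines are means of 3. The Stupicke points stay at about the same height in mock and MeJA except for Solyc04g071770 and Solyc12g005600, while the Criollo and Micro-Tom points are mostly higher with MeJA.

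The annotation list of transcription factors, with 151 genes, held 5 members, namely 4 ethylene-responsive factors (ERF) and a Myb-like gene. Of the list, 98 genes reached 5 TPM in mock-primed Stupicke, beside 61 members among all 1968 annotated genes at that level. ERFs bind GCC-type promoter elements and include many genes that respond to ethylene and jasmonate. Solyc03g117130 was the most abundant, with 203, 184 and 268 TPM in mock-primed Stupicke, 19.1, 12.3 and 15.6 in Criollo and 24.0, 17.9 and 24.0 in Micro-Tom. With MeJA it had 196, 220.3 and 215 TPM in Stupicke, 20.9, 45.3 and 31.6 in Criollo and 33.3, 33.6 and 37.1 in Micro-Tom, so the genotypes kept apart. EdgeR gave log2 fold changes of 2.82 ± 0.25 (adjusted p = 5.2e-05) over Criollo and 2.54 ± 0.24 (adjusted p = 2.3e-05) over Micro-Tom. The ERF genes Solyc03g117230 and Solyc04g050750 were higher too, with edgeR log2 fold changes of 1.53 and 1.37 over Criollo and 2.39 and 1.88 over Micro-Tom. Without replicate 1 or 3 of MeJA-primed Criollo the call of Solyc04g050750 over Criollo was lost. The remaining ERF behaved differently. Solyc04g071770 had 51.0, 45.4 and 49.2 TPM in mock-primed Stupicke, 11.2, 9.28 and 11.5 in Criollo and 12.7, 15.3 and 5.45 in Micro-Tom, but with MeJA it had 89.6, 91.6 and 102 TPM in Stupicke, 45.2, 57.1 and 35.3 in Criollo and 87.4, 101 and 98.0 in Micro-Tom. MeJA-primed Stupicke and Micro-Tom overlapped, and the log2 fold change between them was 0.33 ± 0.16 (adjusted p = 0.0993) by edgeR and -0.02 on the log2(TPM + 1) scale, while over Criollo it was 1.17 ± 0.16 (adjusted p = 5.6e-04). It was the only member whose mean in MeJA-primed Micro-Tom exceeded its mean in mock-primed Stupicke, and none did so in MeJA-primed Criollo. The Myb-like gene Solyc05g009720 was weakly expressed, at 5.14 ± 0.897 TPM in MeJA-primed Stupicke, with edgeR log2 fold changes of 1.82 ± 0.25 (adjusted p = 6.7e-04) and 1.17 ± 0.24 (adjusted p = 0.00256). Of the 148 annotated factors tested, 46 exceeded Criollo in MeJA-primed Stupicke and 26 fell below it, and 47 exceeded Micro-Tom and 49 fell below it, beside 16.1% and 17.2%, and 27.7% and 27.4%, of all genes tested.

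A pair of members with roles in hormone pathways was singled out after the values were seen. Solyc05g053530, a 9-cis-epoxycarotenoid dioxygenase gene, encodes the class of enzyme that commits carotenoids to ABA synthesis. It had 15.5, 17.6 and 22.3 TPM in mock-primed Stupicke, 0.787, 0.655 and 0.477 in Criollo and 1.41, 0.497 and 0.218 in Micro-Tom. With MeJA it had 22.2, 25.7 and 25.6 TPM in Stupicke, 6.37, 12 and 5.61 in Criollo and 2.39, 2.48 and 4.18 in Micro-Tom. The genotypes remained apart, with edgeR log2 fold changes of 1.73 ± 0.30 (adjusted p = 0.00206) and 3.13 ± 0.33 (adjusted p = 3.7e-05), although the mean in Criollo was 12.5 times and in Micro-Tom 4.26 times that of mock-primed seeds. Solyc12g013620, described as jasmonic acid 2, a NAC-type transcription factor of tomato, had 39.5, 33.6 and 33.6 TPM in mock-primed Stupicke, 8.34, 5.12 and 5.66 in Criollo and 4.27, 2.89 and 0.854 in Micro-Tom. With MeJA it had 38.4, 42.6 and 59.3 TPM in Stupicke, 17.4, 41.6 and 22.5 in Criollo and 18.7, 21.7 and 26.1 in Micro-Tom. Criollo and Stupicke overlapped, and edgeR's log2 fold changes were 0.90 ± 0.30 (adjusted p = 0.0451) and 1.21 ± 0.31 (adjusted p = 0.00734). The call over Criollo held in 2 of the 9 leave-one-out fits, those without replicate 2 of Criollo or replicate 1 of Stupicke (edgeR adjusted p = 0.00207 to 0.145).

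The list of oxidoreductases other than cytochrome P450, the largest of the 21 lists, held 10 members among 183 annotated genes. Of its genes, 144 reached 5 TPM in mock-primed Stupicke, beside 61 members among all 1968 annotated genes at that level. The hydroxysteroid dehydrogenase gene Solyc06g072670 (a family that includes the steroleosins of oil bodies) had 581, 486 and 572 TPM in mock-primed Stupicke and 454, 497 and 492 with MeJA, and edgeR's log2 fold changes under MeJA were 2.07 ± 0.22 (adjusted p = 1.5e-04) and 1.92 ± 0.22 (adjusted p = 6.4e-05). The aldehyde dehydrogenase gene Solyc12g007030 had 460.1, 407 and 516 TPM in mock-primed Stupicke and 292, 339.6 and 331 with MeJA, the MeJA-primed libraries lying below the mock-primed ones. Its MeJA-primed values in Criollo (80.2, 118 and 102) and Micro-Tom (97.1, 88.1 and 86.3) were all lower, and edgeR gave log2 fold changes of 1.79 ± 0.16 (adjusted p = 5.2e-05) and 1.99 ± 0.16 (adjusted p = 8.3e-06). Solyc09g015070, an NAD(P)-linked oxidoreductase gene, was at 261 ± 50.4 TPM in MeJA-primed Stupicke, 47.3 ± 16.3 in Criollo and 40.1 ± 1.57 in Micro-Tom, log2 fold changes of 2.57 and 2.87 that edgeR called. The list as a whole leaned neither way, with 50 of 181 tested genes above and 51 below Criollo in MeJA-primed Stupicke, and 55 above and 60 below Micro-Tom.

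Several members encode enzymes of organic acid metabolism and respiration, again named after their values were seen. Citrate synthase (Solyc07g055840), which condenses acetyl-CoA with oxaloacetate in the tricarboxylic acid and glyoxylate cycles, had 466, 474 and 477 TPM in MeJA-primed Stupicke, 108, 119 and 98.1 in Criollo and 92.5, 112 and 109 in Micro-Tom, with log2 fold changes of 2.23 ± 0.11 (adjusted p = 1.7e-06) and 2.33 ± 0.11 (adjusted p = 6.3e-07) by edgeR. Malic enzyme (Solyc12g008430), which decarboxylates malate to pyruvate, had 175, 252 and 205 TPM in Stupicke, 18.6, 25.8 and 27.7 in Criollo and 33.1, 25.9 and 29.2 in Micro-Tom after MeJA priming and edgeR log2 fold changes of 3.25 ± 0.21 (adjusted p = 8.9e-06) and 3.03 ± 0.21 (adjusted p = 3.7e-06). In both genes the 3 Stupicke libraries stood clear of the 6 others. Both annotated iron-sulfur subunit genes of succinate dehydrogenase that were members, Solyc04g055030 and Solyc08g076880, were upregulated, by 2.34 and 2.28 log2 units over Criollo and 1.39 and 1.51 over Micro-Tom, as was alternative oxidase 2 (Solyc01g105220), a terminal oxidase of plant mitochondria, by 1.58 and 2.65.

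Glutathione S-transferases, which conjugate glutathione to electrophiles, were represented by 3 members, of which Solyc12g011310 and Solyc12g011320 are neighbours on chromosome 12. Solyc12g011310 had 368, 471 and 399 TPM in MeJA-primed Stupicke, 53.1, 119.9 and 175 in Criollo and 92.7, 85.3 and 111 in Micro-Tom, whereas the far weaker Solyc12g011320 had 9.45, 12.8 and 10.4 TPM in Stupicke, 2.76, 3.49 and 4.93 in Criollo and 5.01, 4.88 and 7.17 in Micro-Tom. Neither gene overlapped between Stupicke and the others. The log2 fold changes were 1.94 and 1.66 over Criollo and 2.06 and 0.94 over Micro-Tom, all called by edgeR. Solyc01g081250 had 122, 91.0 and 92.4 TPM in mock-primed Stupicke and 97.1, 73.0 and 238 with MeJA, so that 1 MeJA-primed library was far above the others. Its log2 fold changes in MeJA-primed seeds were 3.51 ± 0.46 (adjusted p = 4.8e-04) over Criollo and 2.39 ± 0.43 (adjusted p = 0.00108) over Micro-Tom by edgeR.

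Other abundant members with a description were the BURP domain gene Solyc08g068150, a Rossmann-fold gene and an SNF4 gene. Solyc08g068150 belongs to a plant-specific family of secreted proteins, and it had 1095, 2116 and 1328 TPM in MeJA-primed Stupicke, 107, 163 and 361 in Criollo and 303, 205 and 360.0 in Micro-Tom. Its libraries were widely spread within groups without overlapping between them, and edgeR's log2 fold changes were 2.98 ± 0.45 (adjusted p = 0.00107) and 2.48 ± 0.45 (adjusted p = 0.00105). The NAD(P)-binding Rossmann-fold gene Solyc01g098850 was at 729.6 ± 94.6 TPM in Stupicke, 139.5 ± 60 in Criollo and 251 ± 26.1 in Micro-Tom with MeJA, and edgeR's log2 fold changes were 2.51 ± 0.29 (adjusted p = 2.1e-04) and 1.78 ± 0.28 (adjusted p = 4.5e-04). SNF4 (Solyc06g068160), named after the regulatory subunit of the yeast Snf1 energy-sensing kinase, showed one of the smaller differences, with 572, 603 and 606 TPM in MeJA-primed Stupicke, 263, 428 and 177 in Criollo and 382, 409.8 and 404 in Micro-Tom. Stupicke did not overlap the others, and its edgeR log2 fold changes were 1.14 ± 0.26 (adjusted p = 0.00849) and 0.70 ± 0.26 (adjusted p = 0.0412). The call over Micro-Tom held in 2 of the 9 leave-one-out fits, those without replicate 2 or 3 of Criollo (edgeR adjusted p = 0.00163 to 0.103). It was also lost in DESeq2 (adjusted p = 0.0738) and in limma on the TPM scale (adjusted p = 0.0808 to 0.0864).

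The smaller annotation lists each held 1 or 2 members. At 5 TPM or more in mock-primed Stupicke there were 6 acyltransferase genes (1 member), 18 of cytochrome P450 (1) and 11 glycosyltransferase genes (2). Transporters numbered 62 (2 members) and ubiquitin and F-box genes 84 (2), beside 61 members among 1968 annotated genes. Both MeJA calls were met by 81.2% of all members and by 9.16% of the genes tested. By edgeR, all members of these lists were called higher in MeJA-primed Stupicke than in both other genotypes. These were the wax ester synthase-type acyltransferase gene Solyc01g011430 (2.13 over Criollo and 1.39 over Micro-Tom), the cytochrome P450 CYP72A219 gene Solyc06g084770 (1.70 and 1.42) and the glycosyltransferase genes Solyc04g074350 (1.86 and 1.39) and Solyc10g008860 (1.05 and 1.04). To these came the oligopeptide transporter gene Solyc01g056530 (0.92 and 1.66, the former call lost without replicate 1 or 3 of Criollo or 1 or 2 of Stupicke, and with all 18 libraries in 1 fit), the cyclic nucleotide-gated ion channel gene Solyc10g006800 (1.91 and 0.54, the latter not called by edgeR with all 18 libraries in 1 fit, adjusted p = 0.160, or by limma on log2(TPM + 0.1), adjusted p = 0.0513) and the E3 ubiquitin ligase gene Solyc11g006360 (1.95 and 1.16). The F-box gene Solyc05g051595, of a family that selects proteins for ubiquitination, was nearly silent in Micro-Tom. It had 13.5, 11.6 and 8.43 TPM in MeJA-primed Stupicke and 1.43, 2.90 and 1.48 in Criollo but no count in the 3 MeJA-primed Micro-Tom libraries, which places Stupicke at least 118-fold higher when 3 counts are taken as the floor for that group. Of the 21 lists, 11 held a member, and none was found in the others. Among those, 28 annotated receptor-like kinase genes, 32 genes for antimicrobial peptides and pathogenesis-related proteins, 16 for proteases and their inhibitors and 18 for cell wall enzymes, and 175 of RNA and translation, reached the 5 TPM that the rule required. At that level 1.09% of all genes were members, and 61 of the 1968 genes with a description. Whether an empty list departs from that share was not tested. Solyc09g065470, described as vicilin-like antimicrobial peptides 2-1, stood on the storage list only.

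Members with a description outside the lists, named after their values were seen, covered varied functions. The LanC-like gene Solyc07g063320 (GCR2) was the most abundant of those given here, at 365 ± 40.1 TPM in Stupicke, 122 ± 23.4 in Criollo and 64.5 ± 5.98 in Micro-Tom with MeJA and edgeR log2 fold changes of 1.69 ± 0.18 (adjusted p = 1.3e-04) and 2.63 ± 0.18 (adjusted p = 3.7e-06). The universal stress protein gene Solyc01g057000, of a family of small nucleotide-binding proteins, was at 119.7 ± 6.25 TPM in Stupicke, 36.9 ± 17.0 in Criollo and 48.6 ± 7.34 in Micro-Tom. Solyc11g007560, a TENA-E gene of a family that in bacteria salvages thiamine, had 49.4, 79.5 and 61.3 TPM in Stupicke, 5.71, 6.56 and 5.43 in Criollo and 11.8, 15.2 and 19.0 in Micro-Tom with MeJA, and edgeR gave 3.55 ± 0.26 (adjusted p = 1.8e-05) and 2.02 ± 0.23 (adjusted p = 7.1e-05). Solyc03g112590, like the CDC48 ATPase that extracts proteins from complexes, was higher by 1.94 and 1.23 log2 units. LysM domains bind chitin-like sugars, and the LysM gene Solyc03g026370 was at 53.6 ± 7.38 TPM in Stupicke, 13.6 ± 4.30 in Criollo and 23.0 ± 2.21 in Micro-Tom. The chitin-binding lectin gene Solyc02g030247 was weak in Stupicke (7.04, 4.56 and 5.38 TPM with MeJA) and nearly off in mock-primed Micro-Tom (0.0592, 0 and 0), where it had 1.26, 0.867 and 1.63 with MeJA. All of these were called higher in MeJA-primed Stupicke than in both other genotypes.

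Of the 12 most abundant members, 2 had no description. Solyc12g098900 had 2652, 2333 and 2865 TPM in mock-primed Stupicke and 2493, 2415 and 2403 with MeJA, while Criollo went from 658, 541 and 731 (mock) to 1025, 1794 and 738 (MeJA) and Micro-Tom from 658, 643 and 339 to 1221, 1219.7 and 1439.7. MeJA-primed Stupicke remained above both, by log2 fold changes of 1.16 ± 0.27 (adjusted p = 0.00940) and 1.2 ± 0.27 (adjusted p = 0.00391) (edgeR). Solyc12g005600 had 468, 391 and 715 TPM in mock-primed Stupicke and 318, 349 and 318 with MeJA. In MeJA-primed Criollo it had 51.4, 96.1 and 57.4 and in Micro-Tom 170.1, 229.7 and 199. Stupicke and the others did not overlap, but by edgeR the log2 fold change over Micro-Tom was 0.20 ± 0.24 (adjusted p = 0.503) and not called, against 2.43 ± 0.27 (adjusted p = 1.8e-04) over Criollo. In limma on log2(TPM + 1) the difference from Micro-Tom was 0.73 and called (adjusted p = 0.0160), and the ratio of mean TPM was 1.65. TPM, unlike the estimated counts that edgeR used, is corrected for transcript length, and the source of the gap between the values was not tested.

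The members that did not meet both calls with MeJA numbered 28. Apart from the 14 that were not tested, 12 were called higher than Criollo but not than Micro-Tom and 2 the reverse. Of these 12, 11 were also called lower in MeJA-primed Criollo than in Micro-Tom, as were 24.6% of the genes tested. That count follows in large part from picking the 12 as above Criollo but not above Micro-Tom in the same fit. The 12 had log2 fold changes over Micro-Tom of 0.20 to 1.47. Beside Solyc12g005600 and the ERF Solyc04g071770 they included Solyc09g082920 (50.7, 50.0 and 43.5 TPM in MeJA-primed Stupicke and 20.8, 25.3 and 38.3 in Micro-Tom), Solyc07g026730 (Stupicke at 30.8, 29.8 and 29.1, Micro-Tom at 17.2, 12.4 and 15.6) and Solyc02g032020 (Stupicke at 29.2, 35.9 and 26.9, Micro-Tom at 20.4, 14.1 and 27.8). In Solyc02g032020 the 2 groups overlapped, and in the former pair they did not. Solyc07g049650 and Solyc06g009050 also missed the call by edgeR, with log2 fold changes over Micro-Tom of 0.70 and 0.73, as did Solyc08g044270 (0.28), which was at 16.5 ± 1.61 TPM in Stupicke, 14.6 ± 2.10 in Micro-Tom and only 1.85 ± 2.17 in Criollo. In limma on the TPM scale, Solyc07g049650 (0.95 to 1.02, adjusted p = 0.0229 to 0.0298) and Solyc09g082920 (0.79 to 0.82, adjusted p = 0.0219 to 0.0245) were called over Micro-Tom. By edgeR Solyc09g092010 was called over Micro-Tom at 2.00 ± 0.50 (adjusted p = 0.00692) and not over Criollo at 1.13 ± 0.45 (adjusted p = 0.0821), and Solyc10g079690, with 4.83, 4.38 and 10.1 TPM in Stupicke and 7.08, 6.28 and 4.79 in Criollo, was the other such member, whose call over Micro-Tom was lost without replicate 3 of Stupicke or replicate 1 or 2 of Micro-Tom. Among those not tested, Solyc06g084760 had 23.9, 15.7 and 2.10 TPM and Solyc11g039680 14.1, 5.52 and 11.1 in MeJA-primed Stupicke.

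Between the genotypes in which the genes had been chosen to be low, 21 members were higher in MeJA-primed Criollo than in Micro-Tom, where 24.7% of the genes tested were, and 41 were lower, where 24.6% were. As shares of all members these are 14.1% and 27.5%. The number lower in Criollo rested in part on single libraries, as it was 25 without replicate 1 of Criollo and 51 without replicate 2, while the number higher was 22 and 18. The median ratio of mean TPM of Criollo over Micro-Tom was 0.817. Beside the LEA D-34 gene, members that Micro-Tom lacked set these genotypes apart. Solyc04g079670 had 90.3, 74.6 and 82.7 TPM in mock-primed Stupicke and 11.1, 6.04 and 9.39 in Criollo, and with MeJA 72.4, 102 and 57.8 in Stupicke and 10.6, 7.39 and 7.97 in Criollo, but was listed at 0 in all 6 Micro-Tom libraries. Over MeJA-primed Micro-Tom, at a floor of 3 counts for its libraries together, Stupicke was at least 60.1-fold higher. Solyc02g021163 was likewise at 0 in every Micro-Tom library, with 32.2, 24.3 and 23.4 TPM in MeJA-primed Stupicke and 19.3, 8.32 and 7.40 in Criollo (at least 19.8-fold for Stupicke over Micro-Tom). Solyc04g016120 was close to it, at 19.5, 26.4 and 21.3 TPM in MeJA-primed Stupicke, 2.83, 9.76 and 8.98 in Criollo and 0, 0 and 0.352 in Micro-Tom. These were named after their values were seen. In the other direction, by edgeR the vicilin Solyc09g082340 had a Criollo to Micro-Tom log2 fold change of -1.64 ± 0.32 (adjusted p = 0.00192).

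MeJA was set beside mock within each genotype as a description, since the mock-primed libraries had fixed Stupicke high and the others low. In Stupicke the members hardly differed, with a median ratio of MeJA-primed to mock-primed mean TPM of 0.900 beside 0.982 over all genes of 5 TPM or more in mock-primed Stupicke. The mean was lower with MeJA in 113 members and higher in 36, and it reached 2-fold in 1 member, beside 0.869% of those genes. In Criollo the median ratio was 1.86 (all such genes 0.923) and 56 members reached 2-fold, beside 1.57%. In Micro-Tom the median was 2.08 (all such genes 1.07) and 79 members reached 2-fold, beside 3.49%. Even so, the median member in MeJA-primed Criollo stood at 18.9% of its mock-primed Stupicke mean and in MeJA-primed Micro-Tom at 21.8%. Without replicate 3 of mock-primed Micro-Tom, 66 members reached 2-fold there, and without replicate 2 of MeJA-primed Criollo 42 did so in Criollo. The annotated LEA and dehydrin genes, except for Solyc09g082110, are not members. Their summed TPM was also higher with MeJA in Criollo (29506 to 34289 mock, 47479 to 69272 MeJA) and Micro-Tom (18867 to 22608 and 34611 to 45202). In Stupicke the ranges overlapped (64620 to 81894 and 75474 to 91005). Solyc10g078770 supplied much of these sums, with mock and MeJA means of 12764 and 27006 TPM in Criollo, 5905 and 20384 in Micro-Tom and 35814 and 40118 in Stupicke. The part of a general difference in stored seed transcripts in the members' levels was not tested.

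**Figure D4:**
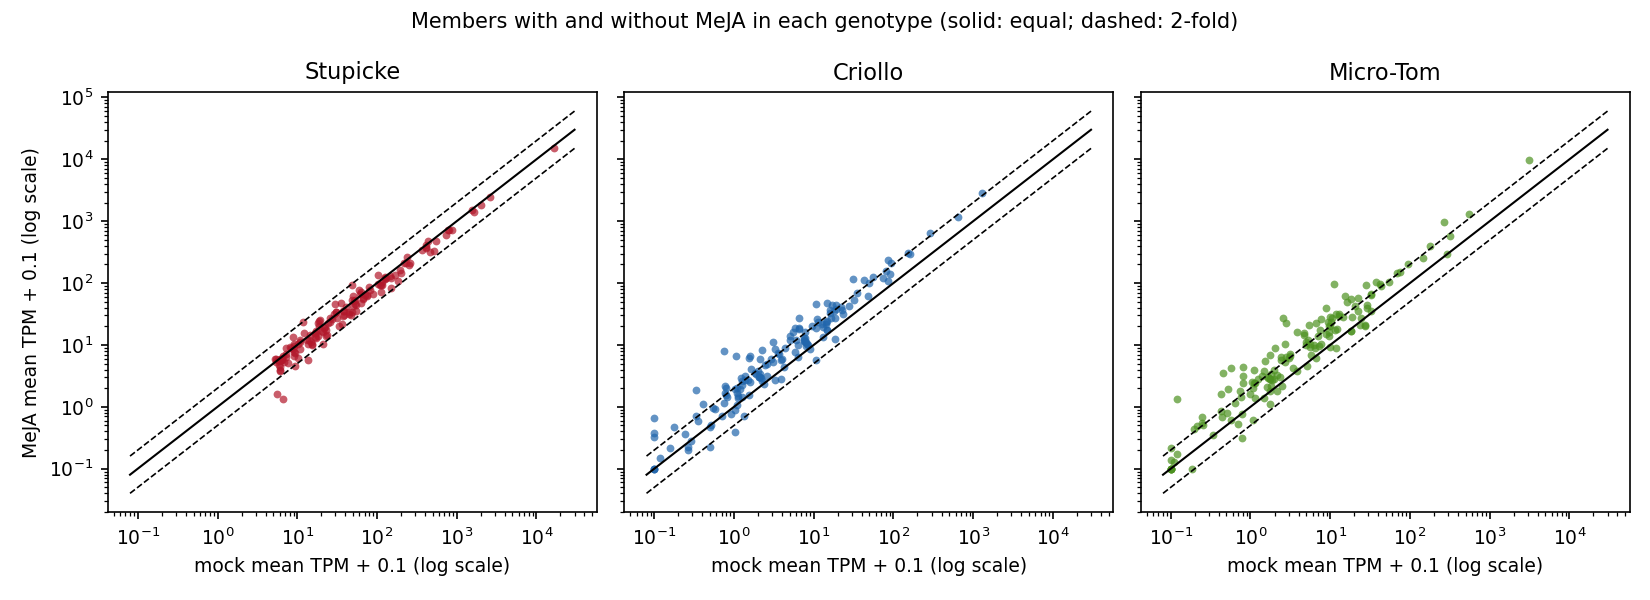
Mean TPM + 0.1 of each of the 149 members (points, n = 3 libraries per mean) in mock-primed (x axis) and MeJA-primed (y axis) seeds of Stupicke, Criollo and Micro-Tom, on log axes; the solid line marks equal means and the dashed lines a 2-fold difference. The Stupicke points follow the solid line, and most Criollo and Micro-Tom points lie above it, 56 and 79 of them at or past 2-fold.

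The members with the highest ratio of MeJA to mock in Stupicke were Solyc02g062300 (2.02), the ERF Solyc04g071770 (1.95), Solyc12g036380 (1.54), Solyc06g009050 (1.53) and the glutathione S-transferase gene Solyc01g081250 (1.34). Among them only the ERF had MeJA-primed libraries that all lay above the mock-primed ones. Solyc02g062300, for one, had 17.6, 10.6 and 6.98 TPM in mock-primed and 16.3, 37.0 and 17.9 in MeJA-primed Stupicke. The lowest ratios belonged to weakly expressed genes without a description, namely Solyc06g082410 (0.192), Solyc09g018373 (0.269), Solyc12g044695 (0.409), Solyc08g063055 (0.481) and Solyc11g039680 (0.490). Solyc06g082410 went from 7.05, 5.24 and 7.10 TPM to 1.56, 1.44 and 0.731 without overlap, and none of the 5 passed the filter on low counts in MeJA-primed seeds.

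A subset of 12 members was close to absent from the other genotypes, under 1 TPM in all 12 Criollo and Micro-Tom libraries. None had a description. Their low MeJA-primed levels in Criollo and Micro-Tom were part of how the subset was picked. For these genes the levels, ratios, intervals and adjusted p-values, here and in the next paragraph, are therefore a description and no support for their absence. Solyc04g055000 had 5.69, 6.47 and 7.06 TPM in mock-primed and 7.33, 5.49 and 5.46 in MeJA-primed Stupicke, from 738 reads over the 3 MeJA-primed libraries, against 6 in Criollo and 3 in Micro-Tom. Its normalized ratio was 133 over Criollo and 256 over Micro-Tom (95% counting interval 87.3 to 1245), and edgeR called both (adjusted p = 4.4e-07 and 1.3e-07). Solyc03g045140 had 826 reads in MeJA-primed Stupicke, 17 in Criollo and 9 in Micro-Tom, with edgeR log2 fold changes of 5.67 ± 0.48 (adjusted p = 4.0e-05) and 6.52 ± 0.52 (adjusted p = 8.5e-06). Solyc01g016460 (28.0, 25.5 and 25.2 TPM in MeJA-primed Stupicke) had 1 read in MeJA-primed Criollo, a ratio of 115 with an interval of 20.3 to 4602, and 3 reads in Micro-Tom, a ratio of 37.2 with an interval of 12.4 to 183. Solyc05g053155 was of the same kind, with 131 reads in MeJA-primed Stupicke, 4 in Criollo and 1 in Micro-Tom, ratios of 35.3 and 136 (the latter with an interval of 24.1 to 5430.2). Solyc01g065960 had 40 reads in MeJA-primed Stupicke, 1 in Criollo, a ratio of 43.2 with an interval of 7.31 to 1747, and none in Micro-Tom, where the floor of 3 counts puts Stupicke at least 13.9-fold higher. The other members of the subset were Solyc04g082540, Solyc10g050490 and Solyc11g017377, at 6.68, 9.11 and 6.02 TPM in mock-primed Stupicke, and the chromosome 6 genes Solyc06g050820 and Solyc06g050837 described next. Intervals and floors cover counting error only. A pair of members, Solyc06g050825 and Solyc12g056470, had no count in any of the 12 libraries, but they rest on only 19 and 13 reads over the 3 MeJA-primed Stupicke libraries, which makes Stupicke at least 6.83-fold and 4.68-fold higher than Criollo if 3 counts are taken as the floor. Outside this subset, Solyc01g056657 (4.85 and 4.59) and Solyc10g050055 (4.80 and 4.51) had comparably large log2 fold changes over Criollo and Micro-Tom, both called by edgeR. Reads were assigned to the transcripts of 1 tomato reference, and whether sequence differences between the genotypes affected mapping was not tested.

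Some of these near-absent genes, 3 in number, sit together with another member on chromosome 6. In the order of the table Solyc06g050820, Solyc06g050825 and Solyc06g050830 follow each other, and Solyc06g050837 comes after 1 other gene. Solyc06g050820 had 16.2, 18.0 and 17.5 TPM in mock-primed Stupicke and 15.3, 13.6 and 17.3 with MeJA, and at most 0.447 TPM in any other library. EdgeR's log2 fold changes with MeJA were 7.06 ± 0.50 (adjusted p = 1.5e-05) and 5.39 ± 0.42 (adjusted p = 7.3e-06). Solyc06g050830, at 31.3, 47.5 and 33.2 TPM in mock-primed and 38.4, 36.1 and 29.9 in MeJA-primed Stupicke, did not exceed 4.47 TPM elsewhere, and its edgeR log2 fold changes were 3.99 ± 0.42 (adjusted p = 1.5e-04) and 4.33 ± 0.44 (adjusted p = 3.4e-05). For Solyc06g050837 the values were 9.72, 11.3 and 11.1 TPM and, with MeJA, 12.2, 12.4 and 10.8, against at most 0.770 elsewhere and edgeR log2 fold changes of 4.35 ± 0.25 (adjusted p = 3.5e-06) and 4.67 ± 0.25 (adjusted p = 1.1e-06). The genes on both sides did not share the pattern. Solyc06g050790 was at 17.7 ± 2.38 TPM in mock-primed Stupicke, 14.2 ± 1.64 in Criollo and 17.2 ± 4.41 in Micro-Tom, whereas Solyc06g050810 ran the other way, at 2.00 ± 0.912, 7.00 ± 0.716 and 12.8 ± 1.42. Solyc06g050840, on the far side, was also lower in mock-primed Stupicke (7.50 ± 4.45) than in Criollo (21.8 ± 3.40) and Micro-Tom (21.0 ± 4.39).

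**Figure D5:**
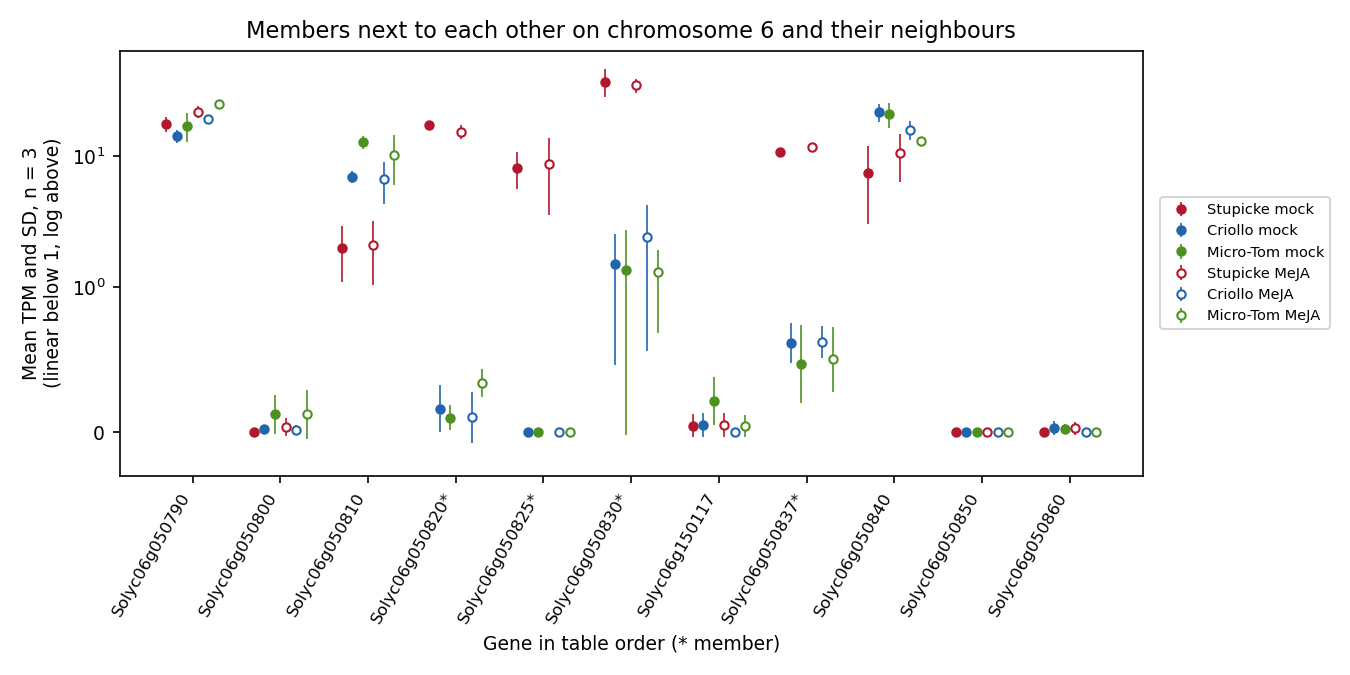
Mean TPM and SD (y axis, linear below 1 and log above; n = 3) of 11 consecutive genes of chromosome 6 in table order (x axis, members starred) in the 6 groups (colour: genotype; filled: mock, open: MeJA). The 4 members are higher in Stupicke (means of 8.20 to 37.4 TPM in mock-primed seeds) than in Criollo and Micro-Tom, and genes on both sides of them are not higher in Stupicke.

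By the chromosome number in the gene identifiers, members were found on all 12 chromosomes, from 5 on chromosome 10 to 20 on chromosome 12. As a share of the genes with 5 TPM or more in mock-primed Stupicke, chromosome 12 had the most members (2.22%), followed by chromosome 4 (1.61%) and chromosome 6 (1.40%), with 1.09% over all chromosomes. Adjacent in the table to another member were 17 members (11.4%), in 8 sets of neighbours. They include the vicilin Solyc09g082340 with Solyc09g082330, the oil body gene Solyc03g005940 with Solyc03g005943, the glutathione S-transferase genes Solyc12g011310 and Solyc12g011320, the P450 gene Solyc06g084770 with Solyc06g084760, and Solyc02g030525 with Solyc02g030527, whose means in mock-primed Stupicke (8.81 and 8.95 TPM) and log2 fold changes over Criollo (3.12 and 3.38) were alike.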

How the data were processed

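RNA of 18 tomato seed samples, in 6 groups of 3 replicates, was sequenced from polyA libraries. The authors quantified reads with Salmon 1.2 on the SL4.0 genome's ITAG4.0 transcripts and deposited estimated counts per gene, not scaled for depth. The deposited TPM table, also made by the authors, is scaled for transcript length and library size. No deposited column was left out.

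Members were chosen on group means of TPM as described. Estimated counts of the 9 MeJA-primed libraries were rounded and tested in edgeR 4.0.16 (R 4.3.3) with TMM normalization, its default filter on low counts, 1 mean per group and Benjamini-Hochberg adjustment over all genes tested, at 0.05. The code was tested on simulated data. DESeq2 1.42.0 and limma 3.58.1 gave alternatives, as did other filters, pseudocounts, scalings, limits of the rule, a replicate block and leaving out each library. With no count in a group, 3 counts over the group were taken as its floor, and ratios over 1 to 3 counts have 95% intervals.

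Genes were named by a rule: the 12 most abundant members, the 8 with the largest smaller-of-2 MeJA fold change, the 10 most abundant not called in both comparisons, the 5 highest and the 5 lowest MeJA to mock ratios in Stupicke, runs of neighbours, those nearest the limit, members named in the study's text and the top 3 of each annotation list. Others were singled out after their values were seen and are marked so where they carry a statement. The members and lists were chosen with earlier results of these data known. Descriptions were matched by identifier from annotation columns of the study's supplement. Sequences and coordinates are not used here.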

Additional observations from a re-analysis of the deposited data

How the results depend on the processing

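The number of genes enriched in mock-primed Stupicke depended on its limits, with 250 genes at a 3-fold limit and 243 at a limit of 1 TPM, against 105 at 5-fold, 115 at 10 TPM, 150 without the condition on overlap and 167 on TMM-normalized CPM per kilobase, of which 133 were shared with the 149. Leaving out each mock-primed library gave 137 to 164 genes. In MeJA-primed seeds, the members called over Criollo numbered 130 to 143 under the other settings and 128 to 134 when each MeJA-primed library was left out. Over Micro-Tom they numbered 114 to 131 and 113 to 128, and in both comparisons 110 to 128 and 108 to 124, and 103 members were called in both in every leave-one-out fit. Between Criollo and Micro-Tom 42 to 68 and 47 to 69 members were called, against 62. Those lower in Criollo numbered 25 to 51 when each library was left out, against 41, and those higher 17 to 22, against 21. Leaving out each library, 0 to 2 members reached 2-fold with MeJA in Stupicke, against 1.

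The replicate number did not pair the samples, as correlations of same-numbered deviations ran from -0.307 to 0.106. With the number as a replicate block, 132 members were called over Criollo, 118 over Micro-Tom, 115 in both and 59 between Criollo and Micro-Tom. Among the named genes, the block ended the call over Micro-Tom of the vicilin Solyc09g082340 (0.86, edgeR adjusted p = 0.0532), Solyc01g005400 (0.59, 0.0787), Solyc07g026710 (1.49, 0.0901) and Solyc07g065990 (0.79, 0.0616), and that of Solyc01g056530 over Criollo (0.93, 0.0515). With the members chosen without replicate 3 of mock-primed Micro-Tom, a choice made after seeing the data, these counts were 121, 114, 112 and 55 of 137.

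Of 1976 values of named genes under the alternatives, 1898 kept their direction and their side of the threshold, 57 lost a call and 17 gained one. The other 4 changed sign, all over Micro-Tom. Solyc04g071770 was at -0.0166 in limma on log2(TPM + 1), with and without the filter at 1 TPM, and at -0.0167 on log2(TPM + 0.1). Solyc02g032020 was at -0.0034 without replicate 2 of MeJA-primed Micro-Tom and at 0.50 without replicate 3, the range when libraries were left out. The causes were not tested. The 14 members with 5 to 38 reads in MeJA-primed Stupicke were left out of the main fit by its filter on low counts. Without that filter all 149 members were tested, and DESeq2 tested 148.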
